A study of Mus musculus with 10 samples.

Results

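The TCP1 ring chaperonin, also called TRiC or CCT, was followed through 9 mouse genes. These were the genes of the 8 subunits called obligate here (Tcp1, Cct2, Cct3, Cct4, Cct5, Cct6a, Cct7 and Cct8) and Cct6b, a close relative of Cct6a. They were taken by symbol, through their Ensembl gene IDs, from the 55487 genes listed in the RNA-seq tables, and all 9 were found. The cells were E14, an established mouse embryonic stem cell line, with no mutation or transgene named, grown in serum with LIF and with inhibitors of GSK and of MEK1/2. RNA-seq was done on 3 replicates of this 1 group, from total RNA depleted of ribosomal RNA. The other 7 of the 10 samples belong to the mapping of R-loops by MapR and BisMapR, control libraries included, and were not analysed here. The labels do not say whether the replicates came from separate cultures, so the spread between them may be technical.

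The ring is an ATP-driven folding machine of the cytosol. It is built from 2 stacked rings, each with 1 copy of each of the 8 subunits, and it closes over an unfolded protein to let it fold inside. Actin and tubulin are its best known clients, and prefoldin, a smaller chaperone, hands them over to it. Because the assembled ring holds equal numbers of its subunits, the question put to the data was how even the 8 transcripts are, and whether Cct6b, which is known from testis as the zeta subunit variant there, is present in stem cells.

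Replicate 1 was the deepest, with 11420425 estimated counts, against 6467405 in replicate 2 and 5787357 in replicate 3. The cell type named in the labels was matched by its markers: the 6 pluripotency genes checked had mean levels from 16.6 TPM (Klf4) to 183 TPM (Nanog), and none of the 6 lineage genes reached a mean of 1 TPM. TPM is a transcript abundance corrected for transcript length and scaled to the same total in every library. Of the 6 fibroblast markers, Thy1 passed a mean of 1 TPM (3.02, 3.30 and 1.19 TPM in replicates 1, 2 and 3) and Pdgfrb had 1.42, 0.960 and 0.550 TPM. These 2 made up nearly all of the list's sum of 4.57, 4.33 and 1.79 TPM, and Col3a1 and Twist2 had no counts in any replicate.

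Promoters are shown first for 4 of the genes, because the genes differ most in level: Cct6a and its scarce relative Cct6b, Cct3, which had the lowest level of the 8, and Cct8, which had the highest in deposited TPM but not with another transcript length (described with the shares). Each window runs from 250 bases before to 50 bases after the annotated start on build GRCm38.p6, from RefSeq, and is written 5′ to 3′ on the strand of the gene. Capitals mark matches on either strand to a CCAAT box (CCAAT or ATTGG), an ETS core (CCGGAA or TTCCGG) and a GC box (GGGCGG or CCGCCC). No match overlaps another in these windows. The windows are chr5:129787106-129787405 (plus strand) for Cct6a, chr11:82764272-82764571 (minus strand) for Cct6b, chr3:88296885-88297184 (plus strand) for Cct3 and chr16:87495820-87496119 (minus strand) for Cct8.
Cct6a: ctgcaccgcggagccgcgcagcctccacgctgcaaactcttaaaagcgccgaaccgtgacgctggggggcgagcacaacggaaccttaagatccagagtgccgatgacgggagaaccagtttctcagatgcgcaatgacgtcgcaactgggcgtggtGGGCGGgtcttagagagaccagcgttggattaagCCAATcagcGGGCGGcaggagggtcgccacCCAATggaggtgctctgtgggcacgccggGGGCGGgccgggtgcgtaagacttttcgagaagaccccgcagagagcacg
Cct6b: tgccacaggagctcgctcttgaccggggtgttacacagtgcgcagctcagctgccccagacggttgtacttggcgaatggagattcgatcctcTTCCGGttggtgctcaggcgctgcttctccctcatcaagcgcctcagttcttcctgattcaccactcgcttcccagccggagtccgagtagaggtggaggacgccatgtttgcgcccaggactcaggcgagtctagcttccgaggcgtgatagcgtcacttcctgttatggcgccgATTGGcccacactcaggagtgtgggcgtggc
Cct3: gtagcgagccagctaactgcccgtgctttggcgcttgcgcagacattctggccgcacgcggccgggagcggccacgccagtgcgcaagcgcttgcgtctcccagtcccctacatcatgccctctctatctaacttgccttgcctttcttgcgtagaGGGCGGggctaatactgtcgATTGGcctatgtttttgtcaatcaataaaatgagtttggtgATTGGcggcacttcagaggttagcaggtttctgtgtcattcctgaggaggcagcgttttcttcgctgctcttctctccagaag
Cct8: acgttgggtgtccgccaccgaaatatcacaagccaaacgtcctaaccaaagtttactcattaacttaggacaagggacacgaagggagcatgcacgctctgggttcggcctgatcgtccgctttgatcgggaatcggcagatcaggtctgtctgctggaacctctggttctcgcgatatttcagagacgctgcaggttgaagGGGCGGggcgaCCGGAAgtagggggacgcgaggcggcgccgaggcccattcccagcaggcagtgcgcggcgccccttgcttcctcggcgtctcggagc

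A GC box was found in windows of 7 of the 7 obligate genes for which a promoter was used, which did not include Cct4, and in 35.7% of all 32851 windows. The window of Cct6b held none. A CCAAT box lay in windows of 4 of the 7 genes (Tcp1, Cct3, Cct6a and Cct7) and in 37.4% of all windows, and an ETS core in windows of 5 (Tcp1, Cct2, Cct5, Cct7 and Cct8) and in 14.9% of all windows. Cct6b held 1 match to each of the last 2. The heat shock element was searched as GAANNTTC and TTCNNGAA, each of which reads the same on both strands. The first was found in 1 window of Cct2 and in 7.86% of all windows, the second in 1 window of Cct5 and 1 of Cct6a and in 8.52% of all. The E-box CACGTG, present in 7.15% of all windows, and a TATA box (TATAAA or TTTATA), present in 13.6%, matched no window of the 9 obligate ones or of Cct6b. Cct2 and Cct5 have 2 windows each, which gives them more room for a match. The obligate windows held 19 to 30 CpG dinucleotides and that of Cct6b 21, against a median of 7 over all windows. These matches describe the letters in the windows and say nothing about binding.

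Transcripts of all 8 obligate genes were abundant and those of Cct6b were close to the floor. The 8 had mean levels from 60.2 to 151 TPM, and 8 of 8 passed a mean of 1 TPM, a level reached by 19.8% of all listed genes. Their median was 96.8, 86.3 and 88.0 TPM in replicates 1, 2 and 3, while the median of the 11000 genes with a mean of at least 1 TPM was 6.89, 5.47 and 4.37 TPM. The difference of the medians was 3.81 ± 0.22 (SD, n = 3) in log2(TPM + 1). A level at least as high as that of the lowest obligate subunit was reached by 652 genes, 1.18% of those listed. Some of these are very short genes, whose TPM rests on a very small effective length (length corrected for fragment size). Among genes with an effective length of at least 100 nt, that subunit, Cct3, ranked 475. Together the 8 genes took 0.323%, 0.367% and 0.387% of the estimated counts of the replicates. The largest counting error (1 SD, Poisson) of any of their counts was 2.41%.

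The subunits are given in the order of their mean deposited TPM. Cct8 (ENSMUSG00000025613, chromosome 16, 87483326 to 87495873), the theta subunit, had 175, 142 and 135 TPM in replicates 1, 2 and 3, a mean of 151 ± 21.1 (SD, n = 3). Tcp1 (ENSMUSG00000068039, chromosome 17, 12915701 to 12925067), the alpha subunit that gave the complex its name, had 142, 129 and 107 TPM. Cct4 (ENSMUSG00000007739, chromosome 11, 22990519 to 23003780), the delta subunit, had 138, 116 and 102 TPM. These were the top 3 subunits in each replicate, in the same order.

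Next in mean level came 4 genes close to one another. Cct2 (ENSMUSG00000034024, chromosome 10, 117051001 to 117063814), the beta subunit, had 107, 88.7 and 78.0 TPM in replicates 1, 2 and 3. Cct5 (ENSMUSG00000022234, chromosome 15, 31590800 to 31601804), the epsilon subunit, had 85.8, 84.0 and 87.7 TPM. Cct6a (ENSMUSG00000029447, chromosome 5, 129786998 to 129846371), the zeta subunit, had 86.9, 81.5 and 88.4 TPM. In TPM the last 2 genes hardly differed between replicates, whereas Cct2 was highest in replicate 1 and lowest in replicate 3. This did not hold in counts scaled by library without a length correction (TMM-scaled CPM, described with the replicates). There Cct5 and Cct6a rose from replicate 1 to replicate 3, and Cct2 moved least and was lowest in replicate 1. Cct7 (ENSMUSG00000030007, chromosome 6, 85451514 to 85468475), the eta subunit, had 86.7, 82.0 and 81.5 TPM. Cct3 (ENSMUSG00000001416, chromosome 3, 88297116 to 88321767), the gamma subunit, stood below them at 56.8, 63.5 and 60.3 TPM, and its values overlapped with those of no other obligate subunit.

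**Figure D1:**
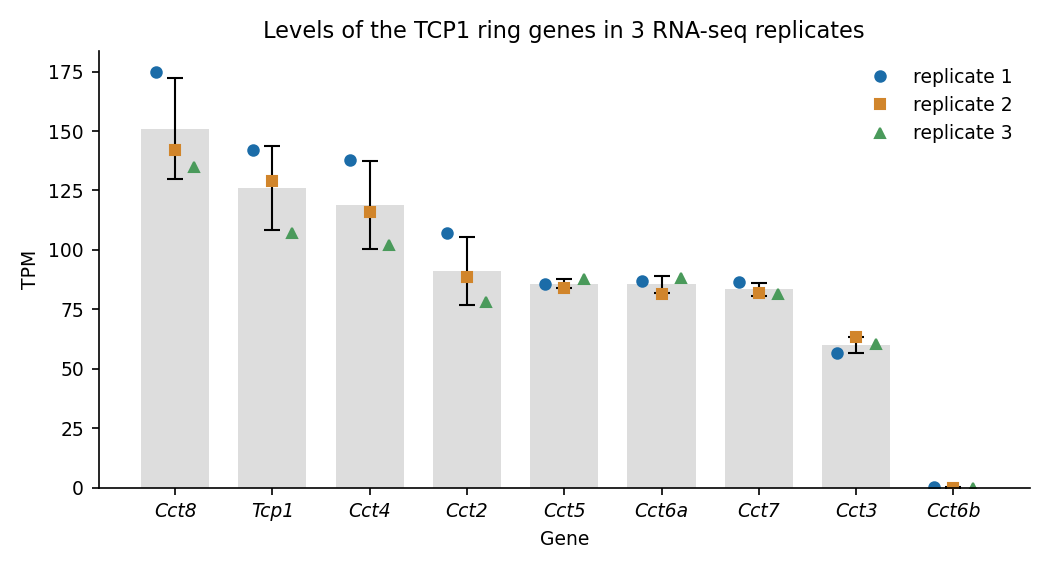
Levels of the 9 genes in TPM, in order of their means; bars are means over 3 RNA-seq replicates, error bars 1 SD, and each point is 1 replicate. The 8 obligate subunits lie between 56.8 and 175 TPM and Cct6b lies at the bottom of the axis; the first place of Cct8 depends on the transcript length used.

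Neighbours in this order were called separate where the difference in log2 TPM had the same sign in all 3 replicates and a mean above 2 SD, which is a description and not a test. Of the 7 neighbouring pairs, 3 were separate. Cct8 exceeded Tcp1 by 0.26 ± 0.11 (SD, n = 3), Cct4 exceeded Cct2 by 0.38 ± 0.01, and Cct7 exceeded Cct3 by 0.47 ± 0.12. Tcp1 and Cct4 were not separate, at 0.09 ± 0.06, and neither were neighbours among Cct2, Cct5, Cct6a and Cct7. Beyond neighbours, Cct4 was not separate from Cct5 (0.46 ± 0.24) or from Cct6a (0.46 ± 0.24), although it was higher in every replicate. Over all 28 pairs, 22 kept their sign in every replicate and 19 were separate. Subunits known to bind ATP tightly (Cct2, Cct4 and Cct5) had means of 91.1, 119 and 85.9 TPM, and those known to bind it weakly (Cct3, Cct6a and Cct8) had 60.2, 85.6 and 151 TPM, so the ranges of both classes overlapped.

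The evenness of the ring was measured within each library, so that differences in depth between libraries do not enter it. The highest of the 8 subunits exceeded the lowest by 3.08, 2.23 and 2.25 times in replicates 1, 2 and 3, a mean of 2.52 ± 0.483 (SD, n = 3). The coefficient of variation over the 8 was 35.3%, 27.7% and 24.4%. Against an equal share of 1 in 8 of the summed TPM, Cct8 took 18.7% ± 1.02 (SD, n = 3), Tcp1 15.7% ± 1.05, Cct4 14.8% ± 1.01 and Cct3 7.56% ± 0.946. The other 4 took 10.4% to 11.3% on average. In deposited TPM, replicate 1 was the least even of the 3 libraries, with the highest share of Cct8 (19.9%) and the lowest of Cct3 (6.47%).

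The place of Cct8 at the top depended on the length used, and the place of Cct3 at the bottom did not. The tables give Cct8 a mean transcript length of 1324, 1487 and 1406 nt in replicates 1, 2 and 3, which RSEM forms as a mean over isoforms weighted by their abundance, while its lowest-numbered transcript in the annotation, called the reference transcript here, measures 2394 nt. Dividing each count by the length of the reference transcript, the same in all replicates, gave Cct8 12.1% ± 0.273 (SD, n = 3) of the ring and rank 5, and put Cct4 first at 17.0% ± 1.22. Cct6a rose in rank under that scaling, from 6 to 3 and from 10.7% to 14.9%, its reference transcript being 1599 nt against deposited lengths of 1980, 1967 and 1925 nt. In CPM, counts scaled to library size with no length correction, Cct8, Tcp1 and Cct4 took 15.0%, 14.8% and 14.4%, and each was first in 1 replicate. With the reference transcript, the highest subunit exceeded the lowest by 2.56, 2.54 and 2.07 times in replicates 1, 2 and 3. In CPM it did so by 2.20, 2.10 and 1.82 times. Replicates 1 and 2 were thus closer in evenness under both scalings than in deposited TPM. Cct3 was last in 3 of 3 replicates under all 5 scalings tried, with mean shares from 7.24% to 7.56%. The scaling by the reference transcript was added after the values were seen.

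**Figure D2:**
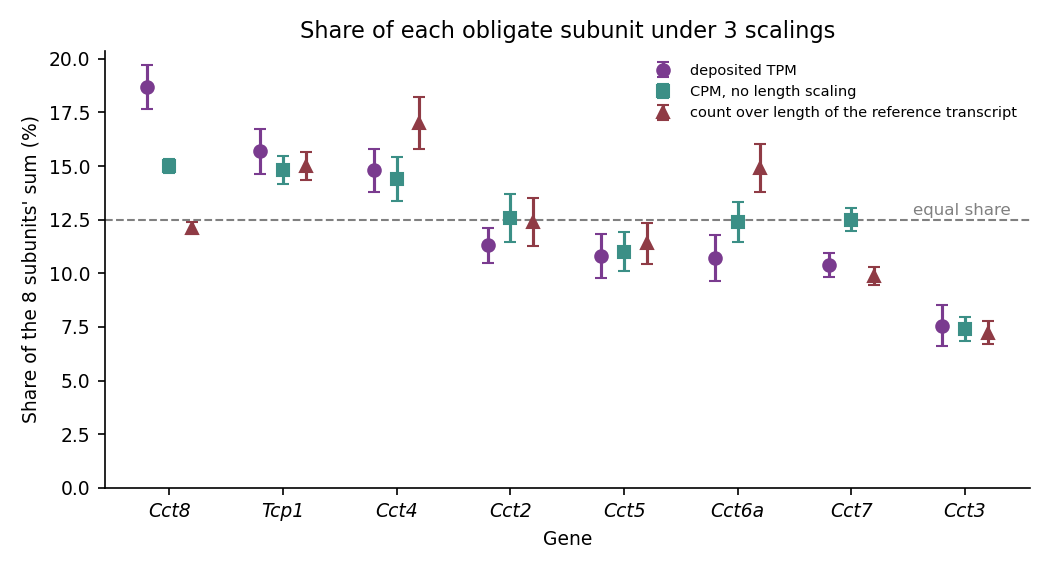
Share of each obligate subunit in the sum of the 8, in percent, under deposited TPM, CPM and the count over the length of the reference transcript; points are means over 3 replicates, error bars 1 SD, and the dashed line is an equal share. Cct8 moves from 18.7% to 12.1% between scalings, and Cct3 stays lowest in each.

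The ring was set beside 2 other complexes with a fixed makeup, prefoldin (6 genes) and the core of the 20S proteasome (14 genes), the barrel that degrades proteins. The SD of log2 TPM over subunits was 0.52, 0.39 and 0.35 for the ring in replicates 1, 2 and 3. It was 0.98, 0.76 and 0.65 for prefoldin, and 0.82, 0.81 and 0.79 for the proteasome core. In each replicate the ring was the most even of the 3. Its SD was lower than that of prefoldin by a mean difference of -0.37 ± 0.08 (SD, n = 3) and lower than that of the proteasome core by -0.39 ± 0.08 (SD, n = 3). The direction held in 3 of 3 replicates for both, and the exact sign-flip permutation test over replicates (two-sided) gave p = 0.25 for each, the smallest value that 3 replicates allow. The level of the ring was also higher: the median subunit had 22.3, 23.0 and 18.0 TPM in prefoldin and 52.2, 46.9 and 43.6 TPM in the proteasome core.

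**Figure D3:**
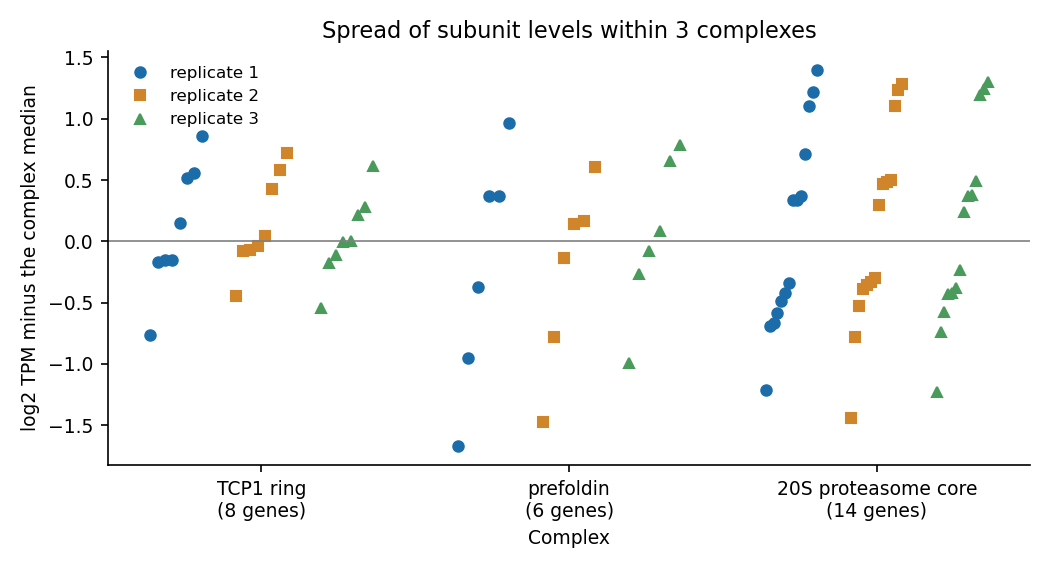
Subunit levels as log2 TPM minus the median of the complex, by replicate, for the ring (8 genes), prefoldin (6 genes) and the 20S proteasome core (14 genes); each point is 1 gene in 1 replicate, sorted within its column. The points of the ring span the narrowest range in all 3 replicates.

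Cct6b (ENSMUSG00000020698, chromosome 11, 82719250 to 82764321) is the tissue-restricted member, and it had 9, 2 and 3 counts in replicates 1, 2 and 3. This is 0.20, 0.060 and 0.10 TPM. Replicates 2 and 3 were at or under the floor of 3 counts, and replicate 1 had an exact Poisson 95% interval of 4.12 to 17.1 counts, which covers counting error only. Per length, Cct6a exceeded Cct6b by 432 times in replicate 1 (95% interval 227 to 945), by 1269 times in replicate 2 (351 to 10487) and by 925 times in replicate 3 (316 to 4488). Over the 3 libraries there were 14 counts of Cct6b and 10167 of Cct6a, a ratio of 658 (392 to 1204). In log2(TPM + 1) the gap was 6.19, 6.28 and 6.34, with p = 0.25 in the exact sign-flip permutation test, the smallest it allows. In bulk RNA a few cells with the transcript and little of it in every cell cannot be told apart.

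The 2 zeta transcripts were 74.3% identical over 1567 aligned nt, and the estimated counts of both were whole numbers in all 3 replicates. Of the 8 spermatid markers checked beside Cct6b, 6 had no counts in any replicate, the protamine genes Prm1 and Prm2 among them, and the list summed to 0.120, 0 and 0.0400 TPM. Cct8l1, another chaperonin relative known from testis, had 1, 1 and 3 counts. Mkks, Bbs10 and Bbs12 are chaperonin-like genes linked to Bardet-Biedl syndrome. Mkks had 4.96 ± 0.751 TPM (SD, n = 3), near the median of genes with a mean of at least 1 TPM. Bbs10 at 1.05 ± 0.0379 TPM and Bbs12 at 0.573 ± 0.0379 TPM were lower.

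The start of Cct6b lies 24 bp from that of Zfp830, a zinc finger gene on the other strand, inside the promoter window printed for Cct6b. Zfp830 had 2.18, 1.57 and 1.99 TPM in replicates 1, 2 and 3, above Cct6b in each replicate. Of the 8 obligate genes, 6 also have a gene starting within 1000 bp on the other strand, and there the ring gene was the higher one in every replicate. The share of all genes with such a partner was not computed, so the count cannot be read as a trait of the ring. A higher ring gene says little, because only 1.18% of listed genes reached the level of the lowest obligate subunit. Psph, which encodes the last enzyme of serine synthesis and starts 451 bp from Cct6a, was the highest of these partners at 24.0 ± 2.81 TPM (SD, n = 3). Mrpl18, a mitochondrial ribosomal protein gene that overlaps the start of Tcp1, had 9.33 ± 1.11 TPM, and Pradc1, beside Cct7, 4.53 ± 1.17 TPM. Tsacc beside Cct3 had 1.23 ± 0.506 TPM, Fam173b beside Cct5 0.453 ± 0.146 TPM, and the noncoding gene B130034C11Rik beside Cct8 0.130 ± 0.0400 TPM.

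**Figure D4:**
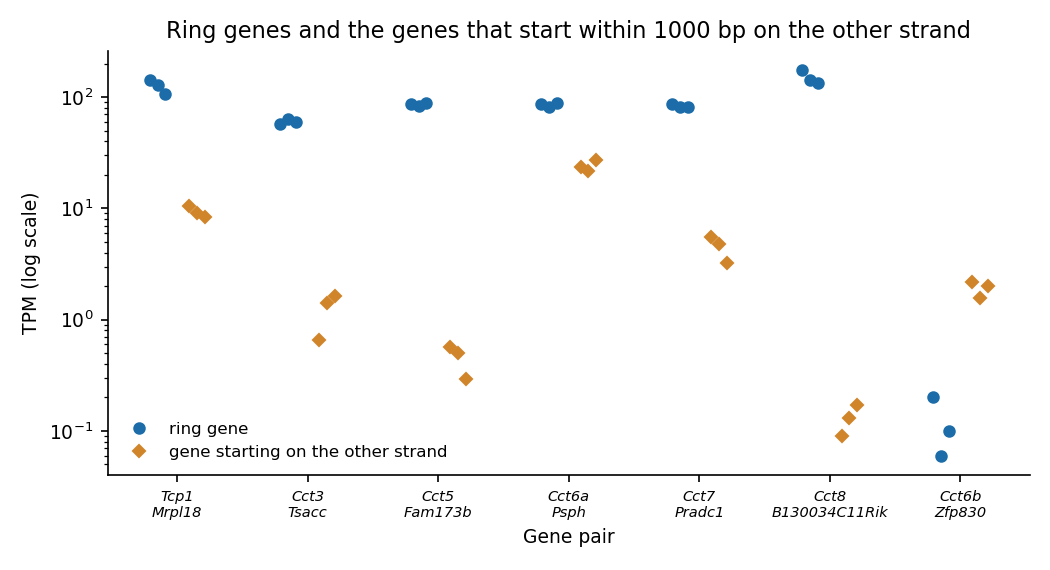
TPM on a log scale for 7 ring genes (circles) and the genes that start within 1000 bp on the other strand (diamonds); each point is 1 of 3 replicates. Cct6b is the member that lies below its partner, Zfp830 at 1.57 to 2.18 TPM.

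Some reads could be shared with other genes. Tcp1 shares 298 nt of exon with Acat3, which runs against it, and Cct7 shares 215 nt with Pradc1 and Cct8 192 nt with Usp16. A further 169 nt of Tcp1 are 97.6% identical to Acat2, which had 89.6, 88.9 and 109 TMM-scaled CPM (CPM adjusted for library composition) against 475, 534 and 594 of Tcp1. Tcp1 was also the one member whose estimated counts were not whole, in 3 of 3 replicates. The strand setting of the counting is not stated, so reads of such stretches cannot be assigned with certainty. Acat3 had 2.14, 1.11 and 0 counts against 5671, 3542 and 3155 of Tcp1. Processed pseudogenes of Tcp1, Cct3, Cct4 and Cct7 (6 in all, at least 85% identical over at least 500 nt) had no counts except 1 count of Cct3-ps1 in replicate 1. Cct6a is listed as a processed transcript in GENCODE vM21 and as protein-coding in RefSeq, so a filter on GENCODE's protein-coding type would leave it out.

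None of the 8 obligate subunits was called as more variable between replicates than genes of similar abundance. So few genes were called in all that this says little about the subunits. The goodness-of-fit test of edgeR over 12577 genes, with Benjamini-Hochberg adjustment over all of them, called 232 (1.84%) at an adjusted p under 0.05 and 0 of the 8 obligate subunits. None of the 8 had an unadjusted p under 0.05. The lowest unadjusted p of this test among the 8 was 0.156, for Cct5. With DESeq2 size factors, 0 of 8 were called as well. Cct6b did not pass the count filter and was not tested.

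Whether the subunits moved together between libraries depended on the scaling. In CPM scaled by TMM, which equalises libraries on the bulk of their genes, 8 of 8 obligate subunits were lowest in replicate 1 and highest in replicate 3, a pattern seen in 23.8% of genes tested. In plain CPM, 8 of 8 were lowest in replicate 1, with 5 highest in replicate 3 and 3 in replicate 2. In TPM there was no common order: 5 of the 8 were highest in replicate 1, 1 in replicate 2 and 2 in replicate 3, and 5 were lowest in replicate 3. Cct5 had 311, 391 and 502 TMM-scaled CPM, and Cct2, which moved least, 428, 441 and 492. The median deviation of the 8 from their gene means was -0.24, -0.01 and 0.24 (log2) in replicates 1, 2 and 3. For 214 genes of the same length range (1406 to 2025 nt) with at least 1000 counts on average it was -0.06, -0.02 and 0.09. The order with replicate 1 lowest and replicate 3 highest was also found in 12 of 14 proteasome core genes, 4 of 6 prefoldin genes and 4 of 16 ring clients. The part of library quality in the TMM-scaled pattern was not tested.

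**Figure D5:**
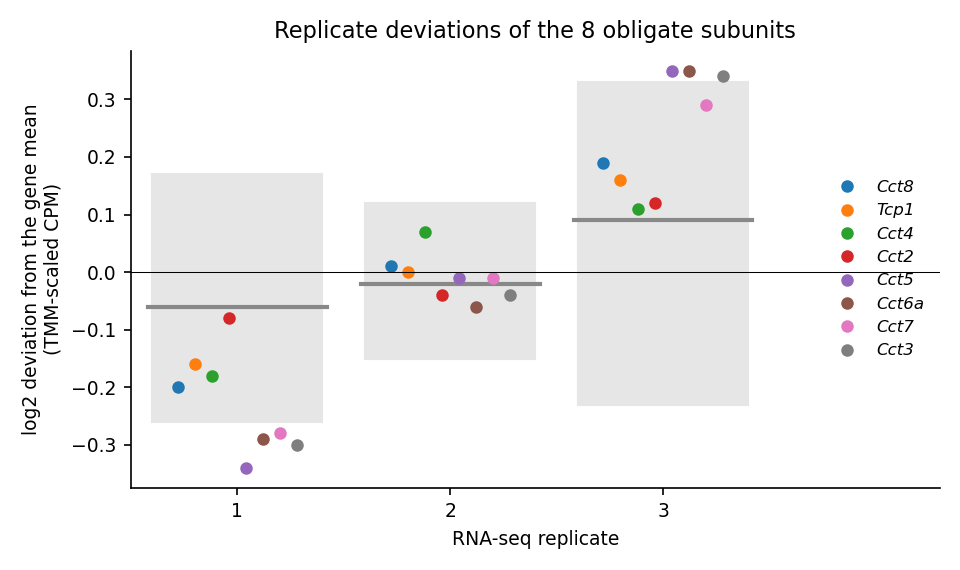
Deviation of each obligate subunit from its own mean (log2, TMM-scaled CPM) by replicate, as coloured points; the grey box spans the 5th to 95th percentile and the grey line marks the median of 214 genes of the same length range. The 8 points lie at or below -0.08 in replicate 1 and at or above 0.11 in replicate 3.

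Transcripts of the partners of the ring were at lower levels than those of its subunits, and those of clients lay both above and below them. All 6 prefoldin genes passed a mean of 1 TPM, from Pfdn6 at 8.02 ± 1.15 to Pfdn5 at 35.1 ± 7.0 TPM (SD, n = 3). The 4 phosducin-like cofactors, which modulate the ring, ran from Pdcl2, known from germ cells, at 1.69 ± 0.125 TPM to Pdcl3 at 16.3 ± 3.39 TPM. The 6 tubulin cofactors, which take over tubulin after folding, ran from Tbcc at 1.81 ± 0.166 to Tbca at 20.2 ± 4.33 TPM. Each of these 16 partners lay below Cct3, the lowest obligate subunit, in mean TPM. This says little about the partners, because only 1.18% of all listed genes reached the level of Cct3.

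All 16 clients listed passed a mean of 1 TPM, with a median of 47.6 TPM, below the 60.2 TPM of Cct3. Beta-actin (Actb) was highest, at 739, 446 and 332 TPM in replicates 1, 2 and 3. The alpha-tubulin gene Tuba1b had 458, 357 and 390 TPM and the beta-tubulin gene Tubb5 236, 180 and 141 TPM, both above every ring subunit in each replicate. The WD-repeat protein gene Mlst8 was lowest, at 3.11 ± 0.666 TPM (SD, n = 3). Tubulin genes share sequence, so their single values are uncertain.

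Other chaperones framed the level of the ring. The mitochondrial chaperonin Hspd1, a distant relative, had 63.1, 57.5 and 55.4 TPM, near Cct3, and its lid Hspe1 173, 133 and 118 TPM. Hsp90aa1 had 906 ± 56.1 TPM (SD, n = 3) and Hspa8, the constitutive HSP70, 503 ± 66.1 TPM. The stress-induced HSP70 genes Hspa1a and Hspa1b, near-identical copies whose reads cannot be split with certainty, had means of 0.0967 and 0.170 TPM. The 5 protein-coding genes nearest to the mean profile of the 8 subunits, by the root mean square difference in log2(TPM + 1) over the 3 replicates among 9673 genes, were Ccnb1 (0.024), Atp5o (0.072), Cd9 (0.083), Uqcrq (0.101) and Fkbp4 (0.109).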

How the data were processed

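RNA-seq of 3 replicates of E14 mouse embryonic stem cells was used, and samples were grouped and numbered by their titles. Per the file headers, the authors deposited 1 RSEM gene table per library with estimated counts (expected count), not normalized, and TPM, scaled by effective length. The authors also deposited FPKM, not used here. STAR, RSEM and mm10 are named in the submitters' processing notes; versions, annotation release and strand setting are not given in the sources used here. Gene names and coordinates came from GENCODE vM21 (GRCm38), in which all 69 transcripts listed for the members were found.

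The members and lists were chosen with earlier results of these data known. Genes were named by a fixed rule: the members, the extremes and main genes of each list, the 5 nearest genes, overlapping or divergent neighbours and sequence copies; other genes named were chosen after their values were seen. Counts were rounded for edgeR 4.0.16 (R 4.3.3): TMM, filterByExpr, trended dispersion and goodness of fit, tested on simulated data. DESeq2 1.42.0 size factors were an alternative. Copies were sought with blastn 2.17.0. Tables and figures were made in Python 3.11.15 (pandas 2.3.3, numpy 2.4.6, matplotlib 3.10.9) and exact intervals with scipy 1.17.1. Other lengths, pseudocounts, filters and replicates left out were the remaining alternatives. Reads without molecular identifiers can be PCR duplicates, so floors and intervals hold for counting error alone.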

Additional observations from a re-analysis of the deposited data

How the results depend on the processing

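The 8 results were recomputed under 56 alternatives, 52 planned and 4 added after seeing the data. By label, 44 counted as the same and 12 as moved. None changed direction, but the ratio of highest to lowest, the coefficient of variation and the counts of genes have no direction to change. A value counted as moved where it differed from the main one by at least the SD over the 3 replicates. Counts of genes have no such SD, so their labels rest on another rule. Leaving out 1 replicate cannot move a mean by that SD. Those labels were fixed in advance and carry no information, yet they are part of the 44. Without length scaling (CPM), the coefficient of variation of the ring was 20.5%, its SD of log2 level minus that of prefoldin -0.706, and the gap between Cct6a and Cct6b 8.18. With the length of the reference transcript, the difference from prefoldin was -0.450 and that from the proteasome core -0.478. The gap between Cct6a and Cct6b was 8.65 with a pseudocount of 0.1 and 9.48 as the log2 ratio of mean TPM, because a pseudocount of 1 exceeds every Cct6b value. The level of the ring over other genes was 5.83 against all genes with any count and 2.82 against genes with a mean of at least 5 TPM, since the reference genes differ. The number of genes varying between replicates was 63 to 93 when 1 replicate was left out, where a gene has fewer values; 0 members were called in each alternative. For the other movements the cause was not tested. Depth limits Cct6b: the floor of 3 counts is 0.263, 0.464 and 0.518 CPM in replicates 1, 2 and 3. Between groups of samples, no paired analysis was possible because the RNA-seq replicates form a single group with nothing to pair them with. The sign-flip permutation tests did use pairs, but of genes or complexes read in the same library.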

Other observations

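Introns of Tcp1 and Cct6a hold 2 small nucleolar RNA genes each, on the strand of the host. In Tcp1, Gm26130 (chromosome 17, 12919585 to 12919722) had 32.9, 26.4 and 26.4 counts in replicates 1, 2 and 3, and Snora20 (12922790 to 12922917) had 6, 7 and 11 counts. In Cct6a, Gm23245 (chromosome 5, 129789539 to 129789673) had 30, 27 and 29 counts and Snora15 (129794546 to 129794676) had 20, 19 and 12 counts. Counts are given because TPM of genes this short (128 to 138 nt) rests on a very small effective length. Reads from the host's introns and from the small RNA cannot be told apart in these tables. The transcripts of the hosts had 2817 to 5671 counts in the same libraries.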
